A study of Homo sapiens with 22 samples.

Results

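Collagen chain genes, those whose symbol is COL followed by a number, the letter A and a number, were examined in 11 human neuroblastoma cell lines. Of 19775 genes measured, 43 were collagen chain genes, and the 32 of them with a mean signal of at least 100 in at least 1 line are described here. Each gene was read from 1 probeset, the brightest by mean log2 signal among the probesets that name only that gene. COL4A4 at 107 and COL4A3 at 113 lay just inside the limit, and COL6A6 at 97.0 and COL26A1 at 94.4 just outside it. Signals of different probesets are not comparable as amounts, so that levels are set against each other only between arrays and lines. Sums of marker signals are likewise compared only between arrays and lines, and bright probesets weigh most in them.

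Each line was grown in hypoxia (1% O2) and in normoxia (20% O2), and 1 Affymetrix HG-U133 Plus 2.0 array was hybridised for each line and condition, giving 11 hypoxic and 11 normoxic arrays. The lines were SHEP-2, SHEP21N with MYCN overexpression, SHEP21N without MYCN overexpression (kept in 50 ng/mL tetracycline), GI-LI-N, ACN, SK-N-BE2(C), IMR-32, SK-N-F1, LAN-1, SK-N-SH and GI-ME-N. The 3 SHEP lines came from a laboratory and the 8 others from a cell line collection, so that SHEP name and provider cannot be told apart. The lines were grouped by name alone, and their descent was not examined.

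Some arrays stood apart. On the normoxic array labelled SHEP21N with MYCN overexpression the ratio of the 3′ to the 5′ control probeset was 67.3 for GAPDH and 94.0 for ACTB, against at most 1.40 and 5.05 on the 21 other arrays. The brightest MYCN probeset gave at most 19.0 on all 4 SHEP21N arrays, and another gave 830 in hypoxia and 13.7 in normoxia in the line labelled with overexpression, against 25.3 in hypoxia and 28.7 in normoxia in the line without it, so that MYCN did not bear out the label in normoxia. No signal on the SHEP21N arrays was under 3.3, while every other array went down to 0.803 or less, and a different treatment of these arrays cannot be told apart from the line. Over all genes, GI-LI-N correlated with IMR-32 and SK-N-SH, and those with each other, at r of 0.919 to 0.931 within a condition, against at most 0.892 for other pairs of lines outside the SHEP21N pair. The arrays labelled SK-N-SH gave a MYCN signal of 35223 in hypoxia and 33504 in normoxia, whereas SK-N-SH is known as a line without MYCN amplification, so that this label is in doubt and SK-N-SH stands below for the arrays labelled so. Neuroblast markers (PHOX2A, HAND2, GATA3, ISL1, TH, DBH, CHGA and STMN2) summed to between 406 and 3639 in ACN, GI-ME-N and the 3 SHEP lines, with 1 to 5 of 8 at or above 100, and to between 47257 and 116805 in the 6 other lines, with 7 or 8 of 8.

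Collagens are secreted or membrane proteins in which alpha chains wind around each other into a triple helix. Fibrillar collagens form the fibrils of connective tissue, type IV collagen forms the network of basement membranes, type VI forms beaded filaments, type VIII forms hexagonal lattices and the fibril-associated types decorate fibril surfaces. Neuroblastoma cultures are known to hold neuroblastic cells and substrate-adherent cells of mesenchymal character. Oxygen enters collagen synthesis because the hydroxylases that modify proline and lysine in nascent chains use it as a substrate.

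**Figure D1:**
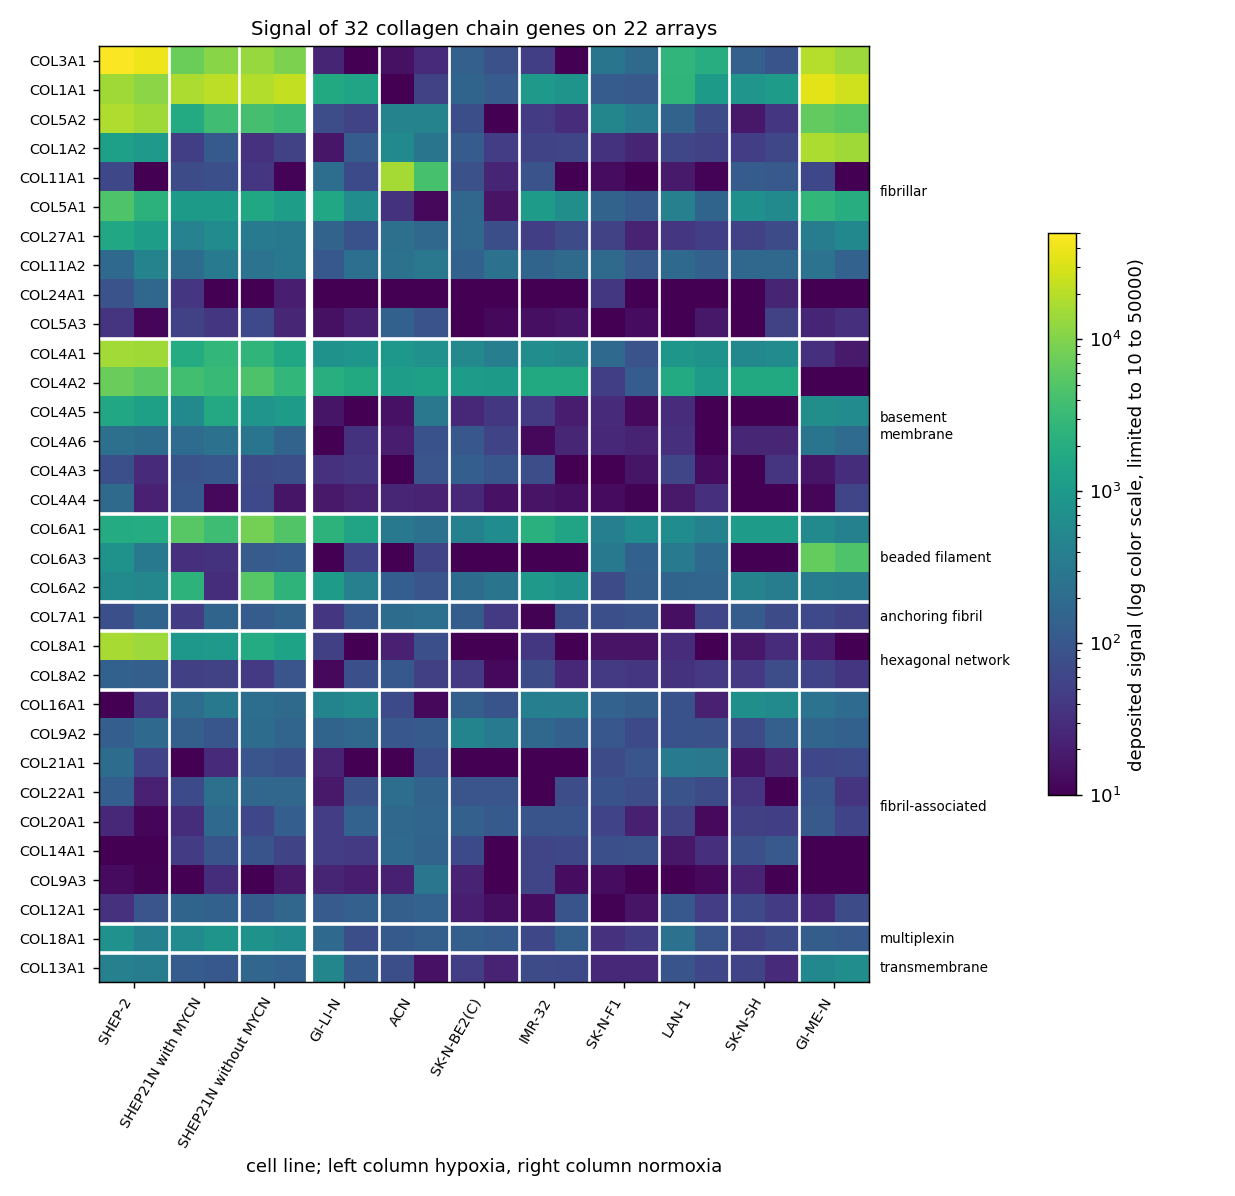
The deposited signal of the 32 collagen chain genes (rows, grouped by structural class) on 22 arrays, as color on a log scale. Each line has a hypoxic column on the left and a normoxic column on the right, the 3 SHEP lines stand left of the thick gap, and of the 14 genes that reach 1000 in a line 13 are highest in a SHEP line or GI-ME-N.

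The members were spread unevenly over the lines. The level of a line is the mean of its hypoxic and normoxic signal. Of the 32 genes, 12 had their highest level in SHEP-2, 7 in ACN, 5 in GI-ME-N and 2 each in SHEP21N with overexpression, SHEP21N without it and SK-N-BE2(C), while LAN-1 and SK-N-SH had 1 each and SK-N-F1, IMR-32 and GI-LI-N none. Over the 16460 genes that reached 100 in a line, SHEP-2 held the highest level of 13.2%, SHEP21N with overexpression of 16.2%, SHEP21N without it of 9.496%, ACN of 16.6% and GI-ME-N of 6.94%. A level of at least 100 was reached by 23 members in SHEP-2, 20 in SHEP21N with overexpression, 21 without it and 9 to 19 in the 8 other lines. Only COL6A1, COL6A2 and COL11A2 reached 100 in every line, and 7 members reached it in 1 line only. The F test between lines, made in the same limma fit as the hypoxia test, called 23 of the 43 collagen chain genes and 21 of the 32 members at an adjusted p under 0.05, against 64.2% of all genes and 74.6% of genes that reached 100 in a line. The median range between the highest and the lowest line was 5.23 on the log2 scale over the 32 members and 2.94 over all genes that reached 100.

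Among the 10 fibrillar members, COL3A1, the single chain of type III collagen, was high in 5 lines. Its signals were 47005 in hypoxia and 39690.3 in normoxia in SHEP-2, 7276 in hypoxia and 11058 in normoxia in SHEP21N with overexpression, and 13578 in hypoxia and 9419.5 in normoxia in SHEP21N without it. In GI-ME-N it gave 19489 in hypoxia and 14348 in normoxia and in LAN-1 2707 in hypoxia and 2002.5 in normoxia. The hypoxic and normoxic signals of the remaining 6 lines were 274 and 190.0 in SK-N-F1, 136 and 90.6 in SK-N-SH, 135 and 83.7 in SK-N-BE2(C), 48.9 and 3.66 in IMR-32, 23.8 and 4.17 in GI-LI-N, and 14.8 and 27.9 in ACN. Both arrays of each of the 5 high lines thus stood above both arrays of every other line, and both SHEP21N lines overlapped each other.

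COL1A1 encodes the alpha1 chain of type I collagen and COL1A2 its alpha2 chain, which normally assemble together. COL1A1 gave 14653 in hypoxia and 11458 in normoxia in SHEP-2, 17417 in hypoxia and 21137 in normoxia in SHEP21N with overexpression, 18651 in hypoxia and 23151 in normoxia in SHEP21N without it, and 35053 in hypoxia and 27093 in normoxia in GI-ME-N. Its levels were 1854 in LAN-1, 1601 in GI-LI-N, 973 in SK-N-SH, 896 in IMR-32, 134 in SK-N-BE2(C), 113 in SK-N-F1 and 28.4 in ACN. GI-ME-N was above the SHEP lines in both conditions, and every array of these 4 lines was above every array of the other 7.

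COL1A2 did not follow this order. Its level was 1102 in SHEP-2, 79.0 in SHEP21N with overexpression and 43.5 without it, against 15959 in GI-ME-N, 429 in ACN and between 29.5 and 82.8 in the other 6 lines. The further COL1A2 probesets also peaked in GI-ME-N, at 14035 and 2406, and gave at most 44.2 in either SHEP21N line. Both SHEP21N lines therefore had COL1A1 among the highest of the 11 lines and COL1A2 among the low ones, and ACN was lowest for COL1A1 and below only GI-ME-N and SHEP-2 for COL1A2 by the brightest probeset, while the further COL1A2 probesets gave 11.4 and 31.0 in ACN. Across the 11 lines the log2 levels of COL1A1 and COL1A2 correlated at r = 0.35 (rho = 0.27).

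The chains of type V collagen, COL5A1 and COL5A2, which regulate the diameter of type I fibrils, were both highest in SHEP-2. COL5A2 gave 18347 in hypoxia and 14822 in normoxia in SHEP-2, 1829 in hypoxia and 3692 in normoxia in SHEP21N with overexpression, 4114.5 in hypoxia and 3297 in normoxia without it, and 6466 in hypoxia and 5454 in normoxia in GI-ME-N. All other lines had a COL5A2 level between 28.0 in SK-N-SH and 454 in ACN. COL5A1 was at 3614 in SHEP-2, 1035.5 in SHEP21N with overexpression and 1389.5 without it, against 2429.7 in GI-ME-N, 1149.5 in GI-LI-N, 898 in IMR-32 and 645 in SK-N-SH. ACN had the highest COL5A2 level outside the SHEP lines and GI-ME-N but the lowest COL5A1 level, 23.4, and r between both genes was 0.47 (rho = 0.64).

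COL11A1, a chain of the thin fibrils of cartilage, was high in ACN alone, with 15957 in hypoxia and 4249.6 in normoxia. A second COL11A1 probeset was at 11962.5 in ACN and at most 169 elsewhere. The next line by the brightest probeset was GI-LI-N at 143. COL11A2, another chain of type XI collagen, ranged only between 148 and 315 and was not called between lines (adjusted p = 0.676). COL27A1, a fibrillar chain of developing cartilage, was at 1362 in SHEP-2, 521 in SHEP21N with overexpression and 328 without it, against 452 in GI-ME-N and at most 202 in the other 7 lines. The last fibrillar members were low, COL24A1 at 132 in SHEP-2 and at most 22.7 elsewhere and COL5A3 at 115 in ACN and at most 45.3 elsewhere, and neither was called between lines.

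All 6 type IV chains were members. COL4A1 and COL4A2 encode the alpha1 and alpha2 chains of the network found in nearly every basement membrane and lie head to head on chromosome 13. COL4A1 gave 15448 in hypoxia and 14884 in normoxia in SHEP-2, 1865 in hypoxia and 2843 in normoxia in SHEP21N with overexpression, and 2606 in hypoxia and 1608 in normoxia without it. The hypoxic and normoxic signals were 911 and 797 in LAN-1, 930.1 and 737 in ACN, 766 and 864 in GI-LI-N, 640.1 and 557 in IMR-32, 532 and 611 in SK-N-SH and 553 and 387 in SK-N-BE2(C). SK-N-F1 had 183 in hypoxia and 87.3 in normoxia and GI-ME-N 31.4 in hypoxia and 18.6 in normoxia. All arrays of the SHEP lines were thus above all others, with SHEP-2 far above the SHEP21N lines.

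COL4A2 was at 6364 in SHEP-2, 3493 in SHEP21N with overexpression and 3683 without it. It was between 1055 and 1918 in the same 6 middle lines, 83.9 in SK-N-F1 and 3.87 in GI-ME-N. GI-ME-N, one of the lines with the highest levels of COL1A1, COL1A2 and COL3A1, had the lowest levels of both COL4A1 and COL4A2. Both genes correlated at r = 0.90 (rho = 0.93) over the 11 lines, and at 0.92 over 9 when the mean of GI-LI-N, SK-N-SH and IMR-32 was taken as 1 line.

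The type IV genes lie in pairs that start in opposite directions, and the stretches between their starts are shown because both genes of a pair begin there. They were taken from RefSeq sequence of build GRCh38.p14 on the plus strand, with CCAAT and GGGCGG in capitals on either strand, so that ATTGG and CCGCCC mark the reverse strand. The first is the whole gap of 126 bases between COL4A1 and COL4A2 (chr13:110307158-110307283), the second the whole gap of 135 bases between COL4A4 and COL4A3 (chr2:227164489-227164623), and the last the 250 bases before COL4A5 (chrX:108439588-108439837) out of a gap of 379 to COL4A6.
COL4A1 and COL4A2: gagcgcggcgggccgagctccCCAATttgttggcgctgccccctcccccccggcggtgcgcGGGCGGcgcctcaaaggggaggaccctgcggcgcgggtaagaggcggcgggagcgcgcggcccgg
COL4A4 and COL4A3: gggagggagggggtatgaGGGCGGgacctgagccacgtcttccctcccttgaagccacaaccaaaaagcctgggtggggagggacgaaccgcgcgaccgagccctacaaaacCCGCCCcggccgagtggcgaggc
COL4A6 and COL4A5: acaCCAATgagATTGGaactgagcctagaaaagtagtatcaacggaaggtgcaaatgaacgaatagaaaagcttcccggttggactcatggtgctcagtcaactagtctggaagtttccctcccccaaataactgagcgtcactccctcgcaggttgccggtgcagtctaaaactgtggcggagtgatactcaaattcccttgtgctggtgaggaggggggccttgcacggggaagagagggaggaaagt
The first held 1 CCAAT and 1 GGGCGG, where 48.3% of the 126 bases before all 35116 annotated starts held either motif. The second held no CCAAT and 2 GGGCGG, where 49.7% of stretches of 135 bases held either. The last held 2 CCAAT and no GGGCGG, where 61.6% of stretches of 250 bases held either.

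COL4A5 and COL4A6, chains of the basement membranes of kidney, skin and smooth muscle, were high in the same lines. COL4A5 was at 1437 in SHEP-2, 1140.2 in SHEP21N with overexpression and 973 without it, against 639.8 in GI-ME-N and at most 161 in the other 7 lines. That value, in ACN, came from 15.0 in hypoxia and 307 in normoxia. COL4A6 was at 215 in SHEP-2, 223 in SHEP21N with overexpression and 209.9 without it, against 236 in GI-ME-N and at most 78.1 in the other 7. By the brightest probesets both genes thus separated the same 4 lines from the rest by level, with r = 0.89 (rho = 0.67). Over the arrays the dimmer COL4A6 probesets correlated with the brightest one at r of only 0.17 and 0.39, and the second COL4A5 probeset at 0.49. COL4A3 and COL4A4, chains of the glomerular basement membrane, were near the limit, with 113 in SK-N-BE2(C) and 107 in SHEP-2 as their highest levels, and neither was called between lines.

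**Figure D2:**
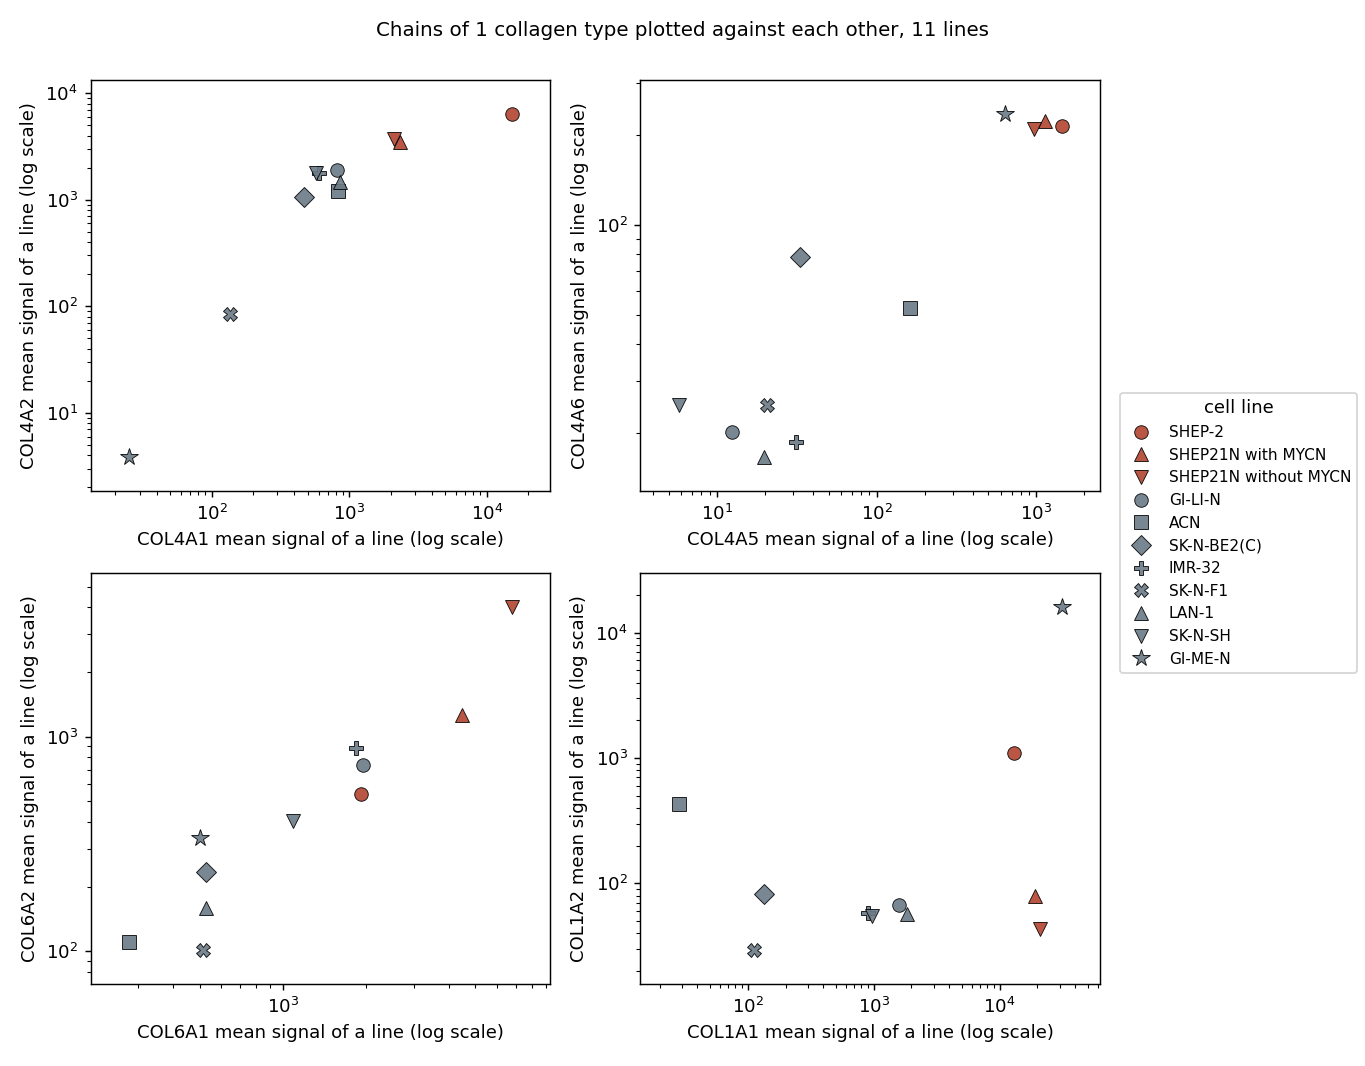
Mean signal of a line for 4 pairs of chains, both axes on a log scale, 1 point for each of 11 lines, SHEP lines in red. COL4A1 and COL4A2 (r = 0.90) and COL4A5 and COL4A6 (r = 0.89) rise together, whereas both SHEP21N lines sit at high COL1A1 and low COL1A2.

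The 3 type VI members encode chains of the beaded filaments around cells, COL6A1 and COL6A2 lying 93063 bases apart on chromosome 21. COL6A1 gave 1886 in hypoxia and 1953 in normoxia in SHEP-2, 5385 in hypoxia and 3517 in normoxia in SHEP21N with overexpression, and 8492 in hypoxia and 5029 in normoxia without it. The hypoxic and normoxic signals were 2438 and 1458 in GI-LI-N, 2223 and 1464 in IMR-32, 1111 and 1063 in SK-N-SH, 427 and 631 in SK-N-BE2(C), 629 and 427 in LAN-1, 399 and 627 in SK-N-F1, 579 and 422 in GI-ME-N, and 318 and 236 in ACN. Every array was above the limit, SHEP21N stood highest, and SK-N-BE2(C), LAN-1, SK-N-F1 and GI-ME-N overlapped each other.

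COL6A2 was at 4007 in SHEP21N without overexpression and at 541 in SHEP-2, against levels between 102 in SK-N-F1 and 883 in IMR-32 in the 8 other lines. With overexpression it gave 2482 in hypoxia and 30.3 in normoxia, the normoxic value coming from the array with the high 3′ to 5′ ratios. A weaker COL6A2 probeset gave 187 in hypoxia and 119 in normoxia in that line. COL6A2 was not called between lines (adjusted p = 0.087) but was called when that line was left out (adjusted p = 6.1e-05). COL6A1 and COL6A2 correlated at r = 0.81 over 11 lines, and at 0.50 without ACN and SHEP21N without overexpression, whose COL6A1 was farthest from the median. COL6A3, the longest type VI chain of this group, stood apart from both. It was at 555 in SHEP-2, 32.9 in SHEP21N with overexpression and 123 without it, against 5716 in GI-ME-N, 255 in LAN-1, 228 in SK-N-F1 and at most 33.6 in the others, with r = -0.08 against COL6A1.

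COL8A1, a chain of the hexagonal lattice under endothelia and in vessel walls, gave 16176 in hypoxia and 14344.5 in normoxia in SHEP-2, 953 in hypoxia and 996 in normoxia in SHEP21N with overexpression, and 1873 in hypoxia and 1386.5 in normoxia without it. The hypoxic and normoxic signals were 50.7 and 4.17 in GI-LI-N, 21.7 and 80.9 in ACN, 39.9 and 4.64 in IMR-32, 29.3 and 4.05 in LAN-1, 19.1 and 1.11 in GI-ME-N, 17.4 and 29.2 in SK-N-SH, 15.9 and 15.6 in SK-N-F1, and 2.39 and 7.44 in SK-N-BE2(C). The 6 SHEP arrays were thus all above the other 16. COL8A2, the partner chain of that lattice, was at 136 in SHEP-2 and at most 78.1 elsewhere. COL18A1, whose C-terminal fragment is endostatin, was at 585 in SHEP-2, 715 in SHEP21N with overexpression and 713 without it, against levels between 39.2 and 166 in the other 8 lines. COL13A1, a transmembrane collagen of cell adhesions, was at 383 in SHEP-2, against 588 in GI-ME-N and 302 in GI-LI-N. COL7A1, the anchoring fibril chain of skin, reached 212 in ACN and was not called between lines (adjusted p = 0.318).

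The 8 fibril-associated members had no level above 633. COL16A1 was highest in SK-N-SH at 633, GI-LI-N at 516 and IMR-32 at 389, the lines whose arrays resembled each other, and lowest in SHEP-2 at 23.2. COL9A2, a chain on the surface of cartilage fibrils, was highest in SK-N-BE2(C) at 406, and COL21A1 in LAN-1 at 315. The remaining 5 (COL22A1, COL20A1, COL14A1, COL9A3 and COL12A1) had highest levels between 147 and 182, 4 of them in ACN. For COL12A1, a chain that binds type I fibrils, a probeset that was looked at after its values were seen disagreed with the brightest one. It gave 3542 in SHEP21N with overexpression and 4563 without it and at most 264 in the other 9 lines, whereas the brightest by mean log2 signal did not pass 147 in any line.

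In all, 44 further probesets of 22 members also reached 100 in a line, and 26 of them had the same highest line as the brightest one. The 11 collagen chain genes below the limit were COL6A6, COL26A1, COL10A1, COL23A1, COL28A1, COL2A1, COL15A1, COL6A5, COL25A1, COL19A1 and COL9A1, with highest levels between 24.5 and 97.0.

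SHEP lines were then set against the 8 other lines on the mean log2 signal of both arrays of each line. The limma test called 4 of the 43 collagen chain genes, all higher in SHEP lines, against 2.6% of all genes called in either direction. They were COL8A1, COL18A1, COL4A5 and COL9A1, and the last had no level above 24.5. Without any adjustment 14 of 43 had a p under 0.05, against 4056 of 19775 genes, and the median log2 difference over the 43 was 0.95, against 0.09 over all genes.

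COL8A1 was between 974 and 15260.5 in the 3 SHEP lines, against a lowest, median and highest level of 4.91, 19.5 and 51.3 in the 8 other lines. The groups did not overlap, and on the log2 scale the difference was 7.60 (SE 0.79, adjusted p = 0.00068). COL4A5 was between 973 and 1437 in SHEP lines, against 5.77, 26.0 and 640 in the others, a log2 difference of 4.92 (SE 1.07, adjusted p = 0.035), with GI-ME-N the nearest of the other lines. COL18A1 was between 585 and 715 in SHEP lines, against 39.2, 119 and 166, a log2 difference of 2.54 (SE 0.45, adjusted p = 0.017).

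The 3 SHEP lines are related and were counted as 3. With both SHEP21N lines averaged into 1, and also with either left out, COL8A1 alone passed, and in the averaged fit COL18A1 had an adjusted p of 0.119 and COL4A5 of 0.157. Leaving out GI-ME-N, the line outside the SHEP family with high COL3A1, COL1A1, COL5A2 and COL4A5, raised the count to 11 of 43, and COL8A1, COL18A1, COL4A5 and COL9A1 were among the 11. Every SHEP line was above every other line for 7 of 43 collagen chain genes, COL8A1, COL4A1, COL4A2, COL4A5, COL18A1, COL4A4 and COL9A1, against 6.27% of all genes. COL3A1 (log2 difference 6.51, adjusted p = 0.10), COL5A2 (5.01, adjusted p = 0.088), COL1A1 (4.62, adjusted p = 0.17) and COL4A1 (3.29, adjusted p = 0.095) did not pass.

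Sums of mesenchymal, fibroblast and endothelial markers overlapped between the SHEP lines and the others. Those of leukocyte markers all but met, at 131.15 in SHEP21N with overexpression against 130.52 in SK-N-BE2(C). Each leukocyte gene by itself overlapped between the groups. The part of these markers in the differences was not tested. Mesenchymal markers (VIM, FN1, CD44, SNAI2, PRRX1, YAP1, NOTCH2 and THY1) were all 8 at or above 100 in the SHEP lines, with sums of 49203 to 116254, against 5 to 7 of 8 in the other lines, with sums of 15669 to 159871 and the highest in ACN. VIM alone gave 108556 of the sum in ACN. Fibroblast markers (DCN, LUM, PDGFRA, PDGFRB and FAP) were 5 of 5 in the SHEP lines, with sums of 2282 to 11796, against 5 of 5 in GI-ME-N and 2 to 4 of 5 in the 7 others, with sums of 1203 to 9020.1. Endothelial markers (PECAM1, CDH5, KDR and VWF) were 1 of 4 in each SHEP line, with sums of 350.1 to 468, against 0 to 2 of 4 in the others, with sums of 131 to 402. Leukocyte markers (PTPRC and CD3E) were 0 to 2 of 2 in the SHEP lines, with sums of 131 to 407, against 0 of 2 in the others, with sums of 37.2 to 130.5.

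**Figure D3:**
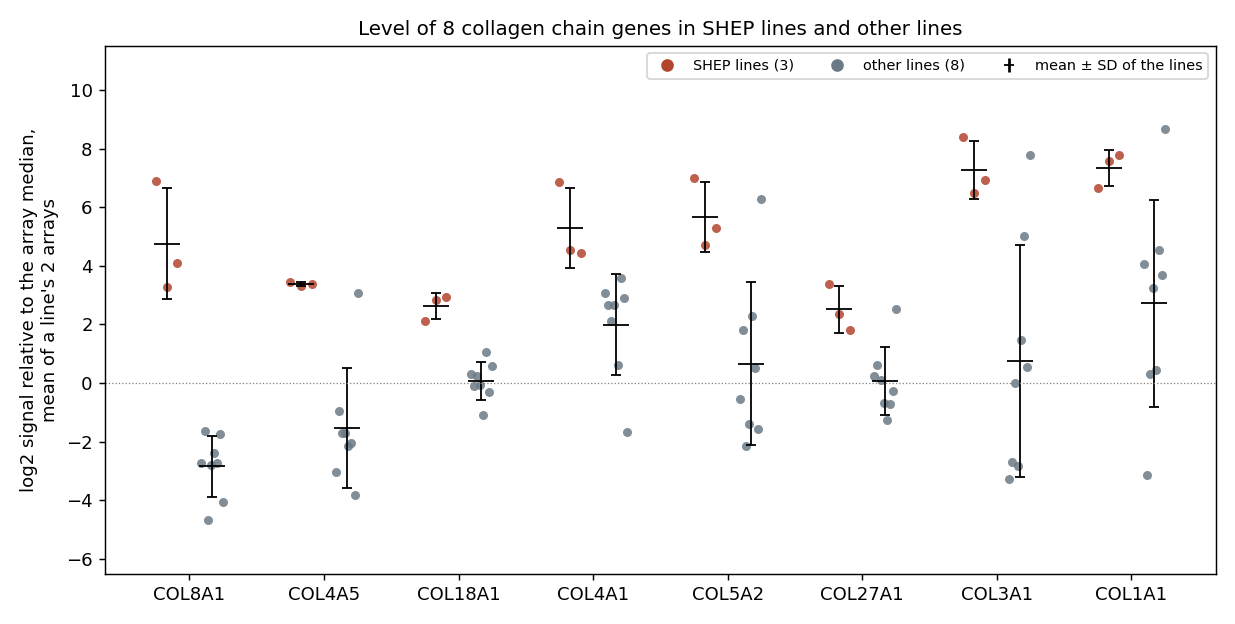
The log2 signal relative to the array median, as the mean of a line's 2 arrays, for 8 collagen chain genes in 3 SHEP lines (red) and 8 other lines (grey), with mean and SD over lines. For COL8A1, COL4A5, COL18A1 and COL4A1 the groups do not overlap. GI-ME-N, 1 of the other lines, lies among or above the SHEP lines for COL5A2, COL27A1, COL3A1 and COL1A1.

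Hypoxia was compared with normoxia within lines. The hypoxia markers BNIP3, NDRG1, VEGFA, PDK1 and ADM, taken as a check of the labels, summed higher in hypoxia in 11 of 11 lines. BNIP3, NDRG1, VEGFA and PDK1 belong to the hypoxia signature that the study chose from these lines, so that they are no independent check. ADM, which is not in that signature, was higher in hypoxia in 11 of 11 lines, and PDK1 in 10. The paired limma fit called 32 of 19775 genes (0.162%), 29 higher and 3 lower in hypoxia, and 0 of the 43 collagen chain genes. At an unadjusted p under 0.05, 3 of 43 were higher and 0 lower, against 10.7% of all genes in either direction. By a paired t-test over all genes with the same adjustment the count of collagen chain genes was also 0. Of the 32 members 18 had a mean change above 0 and 14 below, with a median log2 change of 0.04, against -0.04 over all genes. COL11A1 and COL5A1 were the 2 of 43 that were higher in hypoxia in 11 of 11 lines, which held for 0.399% of all genes.

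COL11A1 gave a lowest, median and highest signal of 13.5, 71.7 and 15957 in hypoxia, against 3.57, 11.0 and 4249.6 in normoxia. Line by line, hypoxia and normoxia gave 15957 and 4249.6 in ACN, 218 and 68.7 in GI-LI-N, 119.8 and 108 in SK-N-SH, 87.7 and 8.81 in IMR-32, 81.96 and 24.5 in SK-N-BE2(C), and 71.7 and 80.7 in SHEP21N with overexpression. The other 5 lines gave 63.9 and 3.57 in GI-ME-N, 62.4 and 9.05 in SHEP-2, 38.3 and 10.7 in SHEP21N without overexpression, 18.7 and 11.0 in LAN-1, and 13.5 and 4.32 in SK-N-F1. Only ACN had high signals in both conditions, and the ranges of both conditions overlapped. In SHEP21N with overexpression the signal as deposited was lower in hypoxia, and the log2 change was 0.05 after division by the array median.

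The mean log2 change of COL11A1 was 1.77 (SE 0.34, adjusted p = 0.092, higher in 11 of 11 lines). It passed when genes with a mean signal under 100 were left out of the test (adjusted p = 0.034 over 12519 genes). COL11A1 met that filter only through ACN, with a level of 10103 there and at most 143 in any other line. With signals under 50 set to 50 the mean log2 change was 0.49 (adjusted p = 0.30), and over the alternatives the adjusted p ran between 0.034 and 1. A second COL11A1 probeset changed by 0.92, higher in 9 of 11 lines, and a dimmer one by -0.61, higher in 6.

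COL5A1 gave a lowest, median and highest signal of 34.9, 1020.5 and 4833 in hypoxia, against 12.0, 650.5 and 2395 in normoxia. The hypoxic and normoxic signals were 4833 and 2395 in SHEP-2, 1020.5 and 1050.5 in SHEP21N with overexpression, 1626 and 1153 without it, 2833 and 2026 in GI-ME-N, 1649 and 650.5 in GI-LI-N, and 1120.2 and 676 in IMR-32. They were 726 and 564 in SK-N-SH, 405 and 155 in LAN-1, 166 and 15.9 in SK-N-BE2(C), 153 and 110.5 in SK-N-F1, and 34.9 and 12.0 in ACN. Hypoxia was higher in 10 of these 11 pairs as deposited and in all after division by the array median, while the ranges of both conditions overlapped.

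The mean log2 change of COL5A1 was 0.99 (SE 0.26, adjusted p = 0.22), and it was 0.76 without SK-N-BE2(C). Its other probesets changed by 0.68, higher in 9 of 11 lines, and by 0.99, higher in 11 of 11. The adjusted p ran between 0.073 and 1 over the alternatives. The changes of COL5A2 and COL5A1 correlated over the 11 lines with r = 0.85, and with r = 0.59 without the 2 lines farthest from the median change of COL5A1. That was the highest r of changes among the pairs of chains compared. The others ran between -0.57 for COL4A1 and COL4A2 and 0.60 for COL6A1 and COL6A2.

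The stretch before the start of COL11A1 and of COL5A1 is shown because these genes were higher in all lines. ACGTG and GCGTG, the core of the sequence bound by hypoxia-inducible factors, would be in capitals on either strand (CACGT and CACGC on the reverse one). Both come from RefSeq, GRCh38.p14, at chr1:103108523-103108772 (minus strand) and chr9:134641553-134641802 (plus strand).
COL11A1: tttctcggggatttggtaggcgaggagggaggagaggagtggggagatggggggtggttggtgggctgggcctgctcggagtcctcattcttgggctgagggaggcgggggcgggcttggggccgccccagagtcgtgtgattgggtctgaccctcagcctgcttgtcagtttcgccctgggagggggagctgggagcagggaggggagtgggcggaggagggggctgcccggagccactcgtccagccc
COL5A1: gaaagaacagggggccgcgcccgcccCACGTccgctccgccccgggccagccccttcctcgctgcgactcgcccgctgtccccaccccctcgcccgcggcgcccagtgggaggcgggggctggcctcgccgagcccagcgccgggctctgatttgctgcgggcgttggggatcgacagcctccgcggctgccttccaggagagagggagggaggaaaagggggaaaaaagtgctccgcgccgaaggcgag
COL11A1 held no match in these 250 bases, and COL5A1 held 1, an ACGTG on the reverse strand. Of the 32 members 22 had a RefSeq promoter window, and 10 of the 22 had a match in the 250 bases of at least 1 window. Counted by window, 12 of their 31 (38.7%) had a match, against 43.2% of all windows.

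The 6 further genes with the smallest p for hypoxia did not pass the limit. COL13A1 gave a lowest, median and highest signal of 26.7, 92.0 and 529 in hypoxia, against 15.1, 66.3 and 647 in normoxia, with a log2 change of 0.66 (SE 0.26, adjusted p = 0.40, higher in 8 of 11 lines). Its pairs of hypoxic and normoxic signals were 410.0 and 357 in SHEP-2, 118 and 105 in SHEP21N with overexpression, 167 and 144 without it, 529 and 647 in GI-ME-N, 493 and 112 in GI-LI-N, and 92.0 and 61.9 in LAN-1. The rest were 78.6 and 15.1 in ACN, 69.9 and 66.3 in IMR-32, 57.4 and 28.4 in SK-N-SH, 47.7 and 22.7 in SK-N-BE2(C), and 26.7 and 26.6 in SK-N-F1. ACN and GI-LI-N differed most between conditions, and GI-ME-N, the highest line, went the other way. IMR-32 and SK-N-F1 were slightly higher in hypoxia as deposited and lower after division by the array median, which the count of lines uses. Both other COL13A1 probesets had a log2 change of the opposite sign, -0.19 and -0.21, and the mean over all probesets of the gene was 0.085.

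COL3A1 had a log2 change of 0.72 (SE 0.36, adjusted p = 0.51, higher in 9 of 11 lines), which was 0.42 without IMR-32, where both signals were under 50. In 4 of its 5 high lines the change was between 0.21 and 0.49, and in SHEP21N with overexpression it was -0.39. Of the 4 other COL3A1 probesets, 3 had a mean log2 change of the opposite sign (-0.13, -0.04 and -0.23) and 1 of the same sign (0.49), and the mean over all probesets of the gene was 0.16. COL4A1 had a log2 change of 0.23 (SE 0.13, adjusted p = 0.56, higher in 8 of 11), and its second probeset one of -0.25. For COL6A1 the log2 change was 0.24 (SE 0.16, adjusted p = 0.65, higher in 9 of 11). COL8A1 had a log2 change of 0.88 (SE 0.58, adjusted p = 0.63, higher in 7 of 11), but in the lines with high levels it was 0.27 in SHEP-2, 0.15 in SHEP21N with overexpression and 0.40 without it. Its 4 largest values, 3.88 in GI-ME-N, 3.55 in GI-LI-N, 3.02 in IMR-32 and 2.77 in LAN-1, came from signals of at most 50.7.

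COL7A1 had the smallest p among the members that were lower, with a lowest, median and highest signal of 10.47, 79.1 and 201 in hypoxia, against 42.5, 92.0 and 224 in normoxia, and a log2 change of -0.70 (SE 0.37, adjusted p = 0.53, lower in 8 of 11 lines). Its hypoxic and normoxic signals were 80.5 and 157 in SHEP-2, 44.7 and 155 in SHEP21N with overexpression, 118 and 151 without it, 201 and 224 in ACN, 124 and 42.5 in SK-N-BE2(C), and 118 and 72.6 in SK-N-SH. They were 79.1 and 92.0 in SK-N-F1, 65.0 and 52.3 in GI-ME-N, 38.3 and 103 in GI-LI-N, 14.1 and 60.6 in LAN-1, and 10.47 and 76.5 in IMR-32. SK-N-BE2(C), SK-N-SH and GI-ME-N were higher in hypoxia, and a dimmer COL7A1 probeset had a log2 change of 0.82, the other way.

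For the other 24 members the mean log2 change lay between -0.46 for COL12A1 and 0.79 for COL6A2. The mean of COL6A2 rested on the normoxic array with the high 3′ to 5′ ratios, with a log2 change of 6.57 in that line, and was 0.21 without it. COL1A1 had a log2 change of -0.16 (SE 0.35), with -3.69 in ACN, where both signals were under 60. Its second probeset had one of 0.80 (SE 0.25, adjusted p = 0.47 over all probesets, higher in 9 of 11 lines). Of the 44 further probesets of members that reached 100, 19 had a mean change of the same sign as the brightest one.

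**Figure D4:**
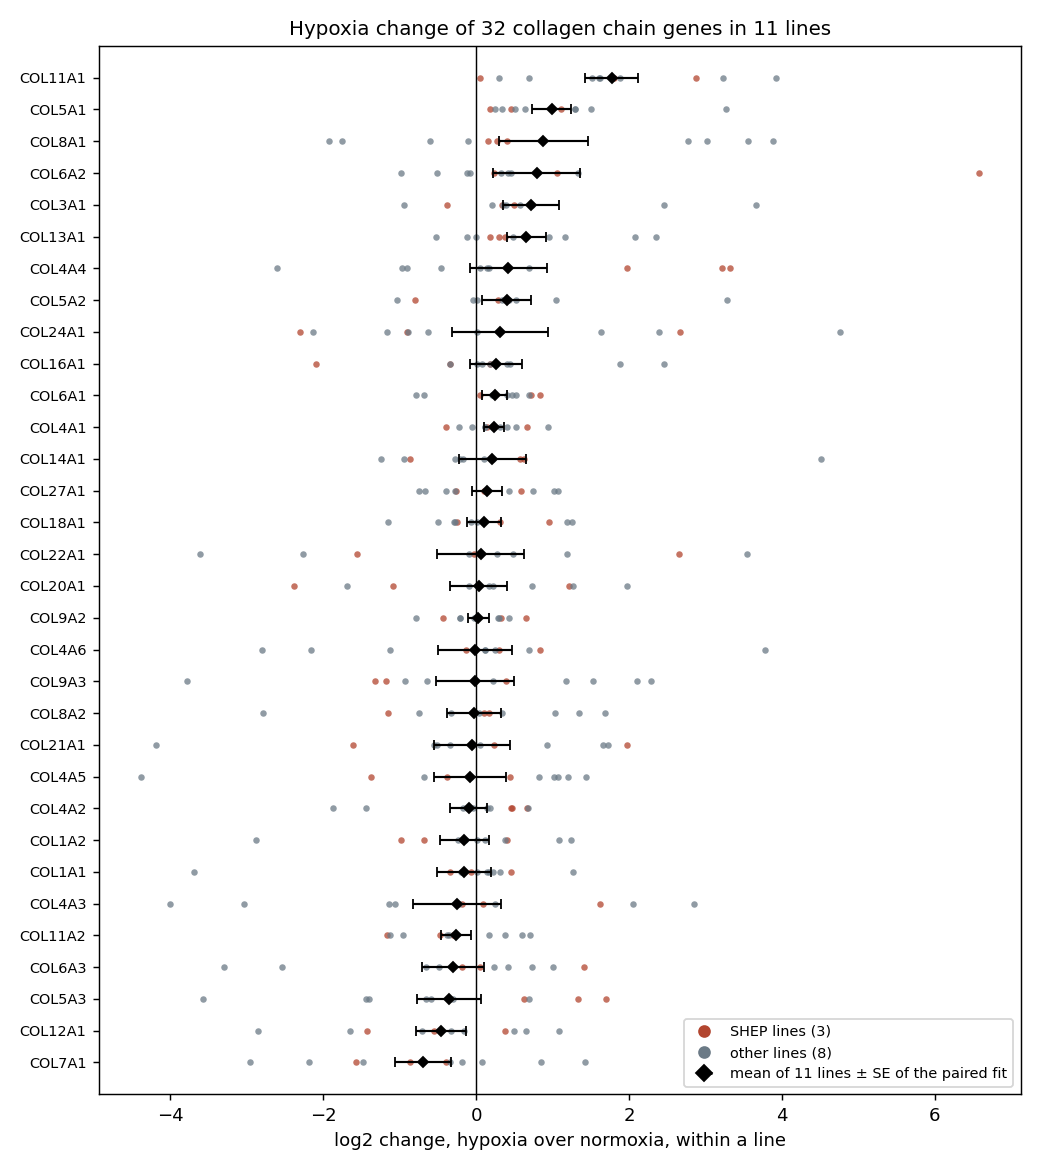
The log2 change in hypoxia over normoxia for each of 32 collagen chain genes (rows, by mean change) in 3 SHEP lines (red) and 8 other lines (grey), with the mean and the SE of the paired fit as black diamonds and bars. COL11A1 (1.77) and COL5A1 (0.99) have all 11 lines above 0, and the lines of every other gene fall on both sides.

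**Figure D5:**
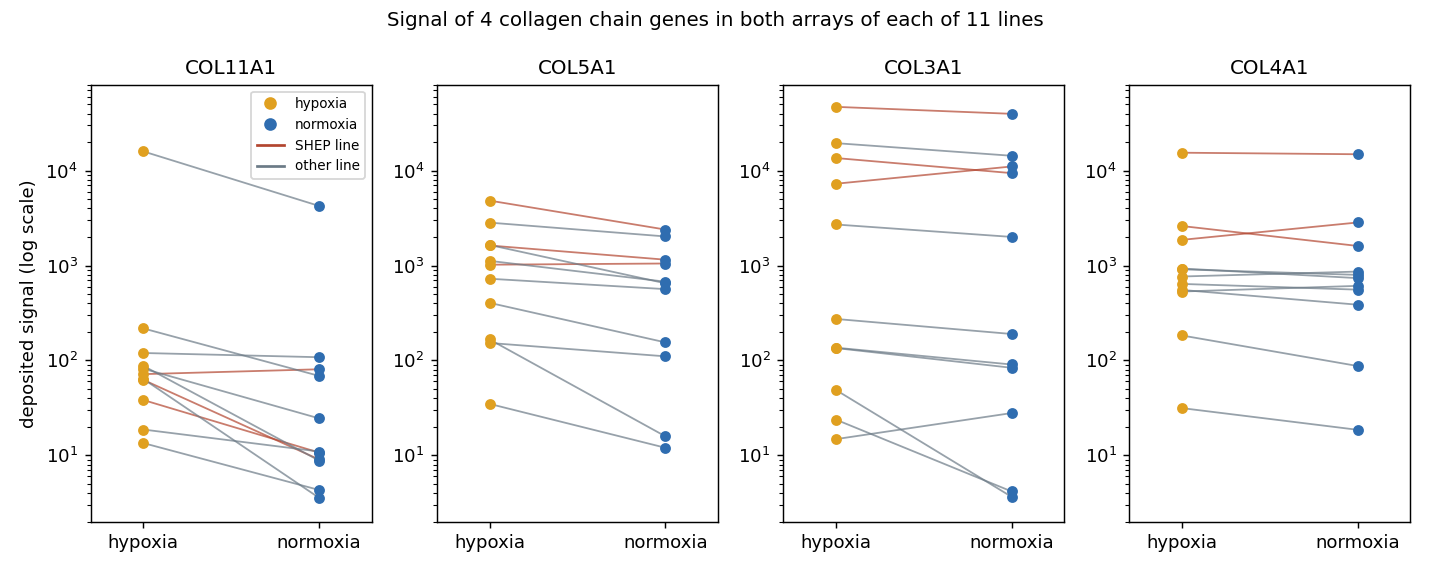
Deposited signals, on a log scale, of COL11A1, COL5A1, COL3A1 and COL4A1 in hypoxia (left) and normoxia (right), each line joined by a segment. COL11A1 is high in ACN only (15957 in hypoxia and 4250 in normoxia), and in COL3A1 and COL4A1 the lines are spread more widely than the conditions.

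The hypoxia change was also compared between the SHEP lines and the 8 others. None of the 43 collagen chain genes differed at an adjusted p under 0.05 in limma, where 2 genes of 19775 (0.0101%) did, and 7 of 43 had an unadjusted p under 0.05, against 2316 of all genes.

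Genes that modify, process, link, degrade or bind collagen were counted beside the chains. Of 41 such genes measured, 3 rose in hypoxia past the adjusted limit and none fell, where the limit was passed by 0.162% of all genes. The 3 were the prolyl hydroxylase subunits P4HA1 and P4HA2 and the lysyl hydroxylase PLOD1, each higher in 11 of 11 lines. P4HA2 and PLOD1 belong to the hypoxia signature that the study chose from these lines, so that their calls are no independent result. P4HA1 gave 559, 3135 and 5405 in hypoxia (lowest, median and highest), against 317, 734 and 3514 in normoxia, a log2 change of 1.47 (SE 0.23, adjusted p = 0.041). P4HA2 gave 328, 1828 and 5519 in hypoxia, against 120.1, 1009 and 2397 in normoxia, a log2 change of 1.24 (SE 0.17, adjusted p = 0.015). PLOD1 gave 494, 1474 and 4093 in hypoxia, against 359.7, 747 and 2720 in normoxia, a log2 change of 0.69 (SE 0.10, adjusted p = 0.027). The ranges of both conditions overlapped for all 3. Of 22 alternatives P4HA2 passed in 17 and P4HA1 and PLOD1 in 9 each. With the mean of all probesets the log2 change was 0.75 for P4HA1 (adjusted p = 0.54) and 0.67 for P4HA2 (adjusted p = 0.32). All 16 folding and hydroxylation genes had a mean change above 0, with a median of 0.25, where 44.4% of all genes had a mean change above 0 and the median was -0.04. The mean change was above 0 in 4 of 8 processing, 4 of 5 crosslinking, 4 of 6 degradation and 2 of 6 receptor genes, and none of those 25 passed. None of the 41 passed between SHEP lines and others.

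SHEP21N with MYCN overexpression was described beside the line without it, with 1 array each per condition and no test. Of 22 members at or above 100 in either line, 8 were lower with overexpression in both conditions by the deposited signals and 1 was higher in both, where 25.6% of the 13216 genes at that level were lower and 29.8% higher in both. After division by the array median 12 were lower and 1 was higher in both, against 30.0% and 25.4% of all genes. COL6A3 was at 31.0 with overexpression and 116 without it in hypoxia, and at 34.7 with and 129 without it in normoxia. COL8A1 was at 952.5 with and 1873 without it in hypoxia, and at 996 with and 1387 without it in normoxia. COL6A1 was at 5385 with and 8492 without it in hypoxia, and at 3517 with and 5029 without it in normoxia. COL27A1 was the gene that was higher in both, at 435 with and 344 without overexpression in hypoxia and at 607 with and 312 without it in normoxia. The normoxic array with overexpression is the one with the high 3′ to 5′ ratios, and the part of RNA quality in these differences was not tested.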

How the data were processed

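Signals of 54675 probesets were deposited for 22 arrays of 11 cell lines. The authors computed these intensity values with MAS5, the algorithms of Affymetrix Microarray Suite, at a target of 500, and the trimmed array means were 500.01 to 500.07. Array medians ran between 71.9 and 132 in hypoxia and between 69.4 and 134 in normoxia.

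Here the signals were set relative to the median of their array on the log2 scale. In the platform annotation 41097 probesets name 1 gene, 1801 several and 11777 none. Each of 19775 genes was read from its brightest probeset. Hypoxia was tested with limma 3.58.1 in R 4.3.3 with the line as a block and Benjamini-Hochberg adjustment over all genes at 0.05. Same-numbered arrays come from the same line, which pairs them, and their deviations from the condition means correlated at r of 0.53 to 0.69. Differences between lines were tested by F in that fit, and SHEP lines against others on line means and on changes within lines. With 1 array per line and condition, p-values for hypoxia and for SHEP lines against others measure the spread between lines. In the F test the hypoxic and the normoxic array of a line stand in for replicates. Its p therefore sets levels against how lines differ in their hypoxia change. The number of arrays limits the precision.

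Named were all members, with array values for the 8 smallest p for hypoxia, line values for the 8 highest signals, and other collagen genes past the limit. Members and lists were chosen with earlier results of these data known. Alternatives were other scalings, a floor of 50, a filter at 100, means over probesets, no block, a paired t-test (the methods name a t-test, after a 2-fold selection, without saying whether it was paired), a 2-fold limit and lines left out or averaged. The steps were tested on simulated data. For 6 genes of the lists no single-gene probeset was used here. Figures were drawn with matplotlib 3.10.9 (Python 3.11.15).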

Additional observations from a re-analysis of the deposited data

Results flagged for a closer look

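Over the 8 lines outside the SHEP family, 40 sets of values were looked at (the levels of 32 members and the hypoxia changes of 8), and chance alone sets about 1 in 20 apart. In 4 of them a single line lay far from the others by Dixon's ratio, the gap to the nearest line divided by the whole range on the log2 scale. GI-ME-N stood apart for the level of COL1A2 (ratio 0.660, signal 15959) and of COL4A5 (ratio 0.583, signal 640). ACN stood apart for the level of COL11A1 (ratio 0.572, signal 10103). SK-N-BE2(C) stood apart for the hypoxia change of COL5A1 (ratio 0.584, log2 change 3.27), where its signal was 166 in hypoxia and 15.9 in normoxia.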

How the results depend on the processing

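No collagen chain gene was called for hypoxia, in the main setting or in any alternative but the filter that kept genes with a mean signal of 100 or more, which called 1 (COL11A1). COL11A1 met that filter only through its signals in ACN. The count over all genes was 32. It was 79 with signals under 50 set to 50, 104 with that filter, 14 with the mean of all probesets, 105 by a paired t-test over all genes, 8 with the SHEP lines averaged, 13 without both SHEP21N lines and 2 when the similar lines (GI-LI-N, SK-N-SH and IMR-32) were averaged. It was 4 without the block that pairs both arrays of a line, and between 7 (without GI-LI-N) and 28 when 1 line was left out. Higher calls were 29 of 32 in the main setting, 50 of 79 with the floor, 59 of 104 with the filter, 36 of 105 by the t-test, 28 of 35 with quantile normalization and 30 of 36 as deposited. The mean log2 change of COL8A1 was -0.041 with the floor, and those of COL7A1 and COL4A1 were 0.060 and -0.0085 with the mean of all probesets. The cause was not tested.

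Between lines 23 collagen chain genes were called, and 22 to 25 without 1 line. For SHEP lines against others the count of 4 became 2 on normoxic arrays alone, 1 without SHEP21N with overexpression, 1 with both SHEP21N lines averaged and 1 with the similar lines averaged (added after seeing the data). It lay between 1 (without either SHEP21N line) and 11 (without GI-ME-N). COL8A1 passed in 21 of 21 alternatives, COL18A1 in 16 and COL4A5 in 7. The hypoxia change differed between SHEP lines and others for 0 collagen chain genes in every alternative run. Low signals limit the changes, and 18 of 32 members had no level of 1000.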
